A study of Homo sapiens with 9 samples.

Results

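The genes described here encode the voltage-gated sodium and calcium channels and the potassium channels of the cell membrane, together with their auxiliary subunits. They were taken by symbol, as those starting with KCN, SCN or CACN and carrying the number of a channel subunit. Of 27730 gene symbols in the table of reads, 138 matched. Of these, 5 are antisense or intronic transcripts of calcium channel genes with no read in any library, which left 133 subunit genes, namely 93 of potassium channels, 14 of sodium channels and 26 of calcium channels. RNA came from HUES9, an established human embryonic stem cell line used at passages 44 to 46 and grown on mouse embryonic fibroblasts. The 3 groups of 3 libraries were untreated cells at day 1, and cells carried to day 13 with either 10 µM AA147 or 10 µM RP22 renewed in the medium each day. AA147 is given by the labels as a small molecule activating ATF6, a stress-responsive transcription factor, and RP22 as an analog of it without that activity; how the structures differ is not stated there. Differentiation started from spun embryoid bodies without FGF2, which were later plated on Matrigel, so the day 13 cultures were mixtures of cells from 1 line. Cultures with the solvent DMSO alone were not analysed here, and day 13 differs from day 1 in both time and compound.

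These channels set the resting potential and the shape of electrical signals. Voltage-gated sodium channels (Nav) carry the fast upstroke of the action potential, voltage-gated calcium channels (Cav) couple depolarization to contraction, secretion and transcription, and potassium channels repolarize the membrane or hold it at rest. Each pore-forming subunit works with partners that change its trafficking or gating, such as the beta subunits of Nav channels, the alpha2delta and beta subunits of Cav channels, and the KCNE, KCNAB, KCNIP and KCNMB proteins of potassium channels. Neurons and heart muscle use different members of each family, while smooth muscle relies on L-type calcium channels and on the large-conductance calcium-activated potassium channel.

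Library totals ran from 9223027 to 10118258 reads. The labels call the replicates independent experiments, and all p-values rest on that. Summed levels of 6 pluripotency markers were 5443 to 6186 CPM (counts corrected for depth on 1 TMM scale over the 9 libraries) at day 1, 321 to 512 CPM with RP22 and 53.1 to 78.4 CPM with AA147. The library of RP22 replicate 1 stood apart from the other 2 of its group. It was farthest from the group's median for 57 of the 99 channel genes with a mean of at least 10 reads there. By the same measure AA147 replicate 1 was farthest in its group for 28 of 53 genes. At day 1, replicates 1 and 2 were farthest for 28 and 31 of 70 genes. In all groups, fewer cells of a type and less RNA per cell cannot be told apart in bulk RNA.

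More channel genes were measurable with RP22 than in either other group. A mean of at least 1 RPKM (reads corrected for gene length and depth, the scale on which different genes can be compared) was reached by 43 of the 133 genes at day 1, by 60 with RP22 and by 25 with AA147. Genes with 3 reads or fewer over the 3 libraries numbered 25 at day 1, 9 with RP22 and 43 with AA147. For the potassium channel genes the counts at 1 RPKM were 26, 41 and 16 in the same order. The corresponding counts were 5, 6 and 2 for sodium channels and 12, 13 and 7 for calcium channels. The same counts were not made over all genes, so they do not show a pattern particular to channels. RPKM carries no TMM correction, which bears on the counts at 1 RPKM. The counts of genes with 3 reads or fewer are of unscaled reads. On log2 RPKM with 0.1 added, the median difference of all genes with AA147 was -0.48 from RP22 and -0.47 from day 1. The heat map of levels shows most rows below their mean in the AA147 libraries beside a few that are above it.

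**Figure D1:**
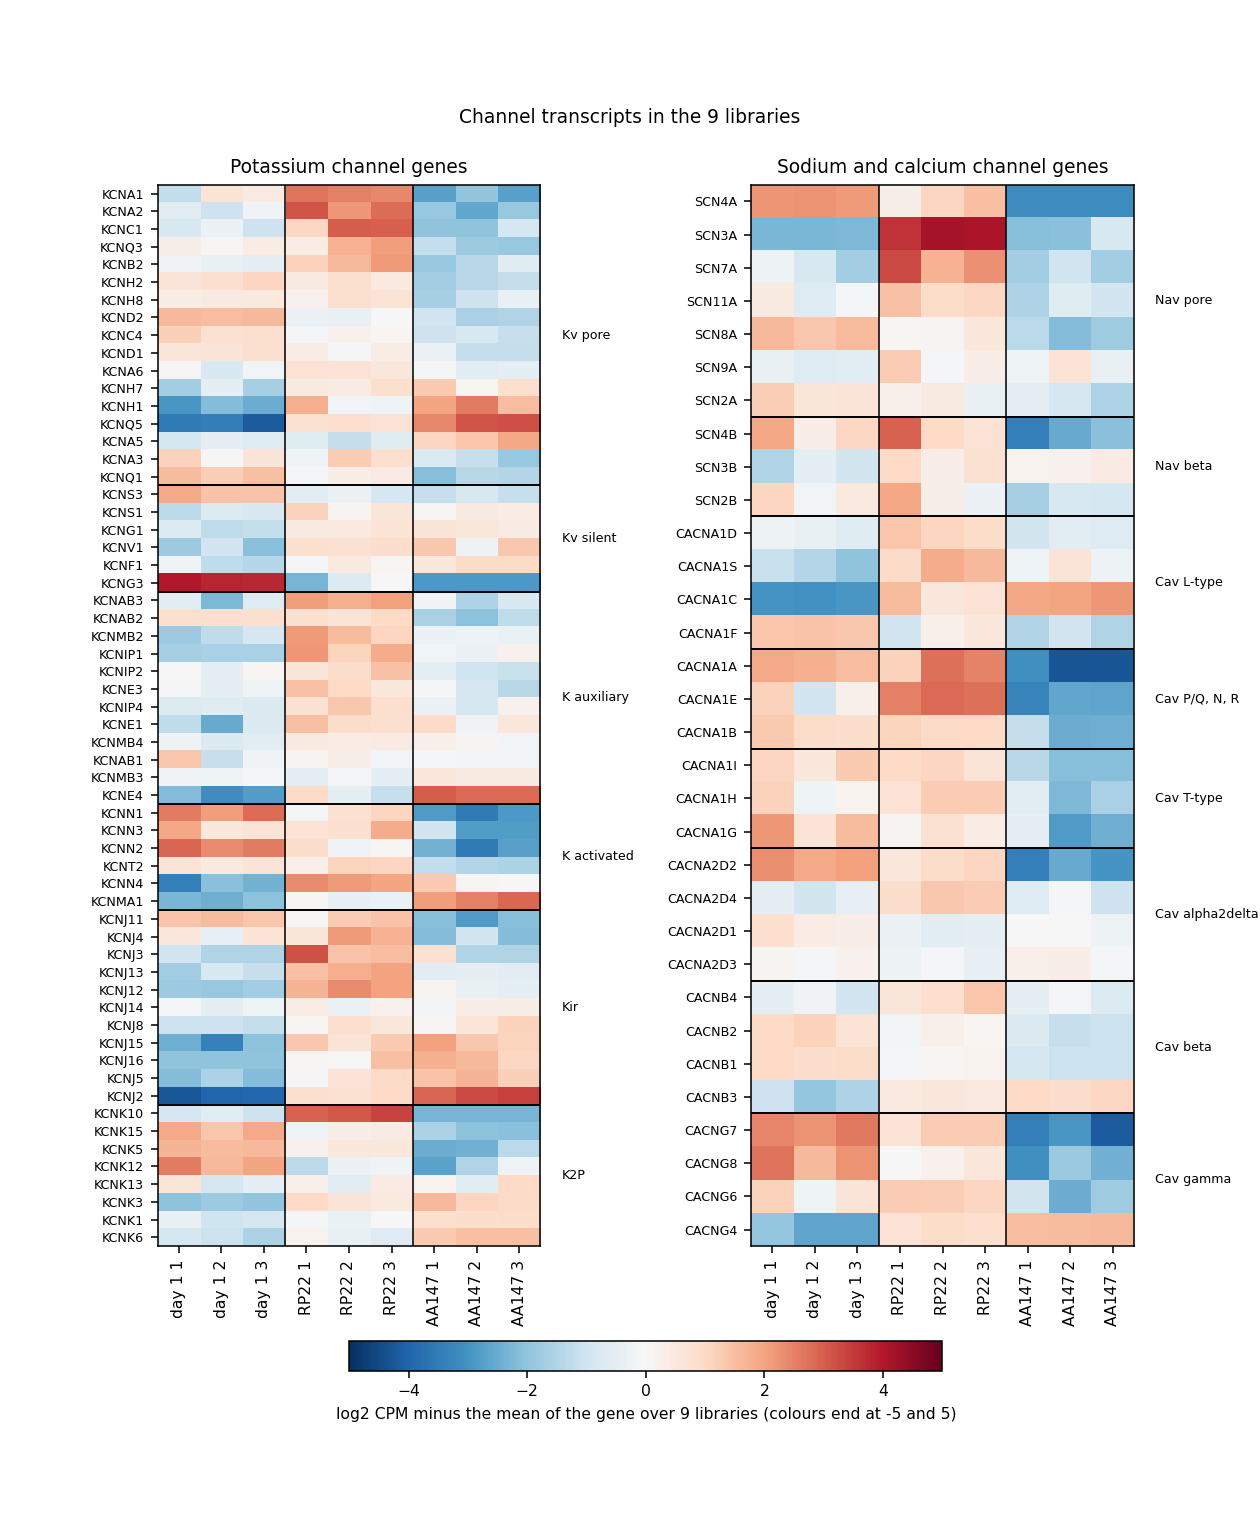
Heat map of channel genes by library, with 1 row per gene grouped by kind of subunit and 1 column per library; colour is log2 CPM minus the gene's mean over the 9 libraries, red above and blue below that mean. The 3 AA147 columns are blue in most rows, while KCNMA1, KCNJ2 and KCNQ5 are red there.

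The most abundant channel transcripts differed between the groups. At day 1 they were CACNA2D1, an alpha2delta subunit of calcium channels, at 19.8 ± 4.27 RPKM (mean ± SD, n = 3), and KCNN2, a small-conductance calcium-activated potassium channel, at 18.9 ± 3.48 RPKM. With RP22 the leading transcripts were CACNG4, a gamma-family auxiliary subunit that also acts on AMPA receptors, at 23.5 ± 2.05 RPKM, and CACNB3, an intracellular calcium channel beta subunit, at 18.1 ± 1.02 RPKM. With AA147 the leading transcript was KCNMA1, the pore of the large-conductance calcium-activated potassium channel, at 54.5 ± 12.6 RPKM. It was followed by CACNG4 at 27.3 ± 0.216 RPKM and CACNB3 at 17.5 ± 0.835 RPKM. KCNMA1 had been at 3.27 RPKM at day 1 and at 9.38 RPKM with RP22.

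The first comparison set AA147 against RP22 at the same dose and day, which are the only pair of compounds in the study. Of the 133 genes, 92 had enough reads to be tested. With AA147, 59 of them fell and 14 rose, at an adjusted p of 0.05 or less by edgeR's quasi-likelihood test with Benjamini-Hochberg adjustment over all genes. Over all 14293 genes tested, 62.0% passed in either direction, 32.2% falling and 29.8% rising. The median log2 fold change of the 92 channel genes was -1.71, against -0.03 for all genes. Falls of at least 8-fold were found for 29 of the 92 (31.5%), where 6.42% of all genes tested fell that far. Rises of at least 4-fold were found for 5 (5.43%), where 1.83% of all genes rose that far. The AA147 libraries did not overlap those of RP22 for 75 of the 92 genes (81.5%), as for 70.5% of all genes. A gene with reads in only 1 group enters the test through that group, so these counts describe the genes that could be tested. Among the 41 genes with too few reads, 33 had fewer reads with AA147 than with RP22, 5 had more and 3 had equal numbers.

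The balance of rises and falls differed by class. Of 61 potassium channel genes tested, 35 fell and 9 rose, with a median log2 fold change of -1.31. Sodium channel genes fell in 8 of 10 cases and rose in 1, with a median of -2.36. Among 21 calcium channel genes, 16 fell and 4 rose, with a median of -2.16. The count of rises depended on the scaling. With library totals in place of TMM factors, the median of all genes moved from -0.03 to -0.49 and 8 channel genes rose, and CACNA2D1 and CACNB3 then had log2 values below 0. The 8 that rose under both scalings were KCNE4, KCNMA1, KCNA5, KCNJ2, KCNQ5, KCNK6, KCNK1 and CACNG4.

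**Figure D2:**
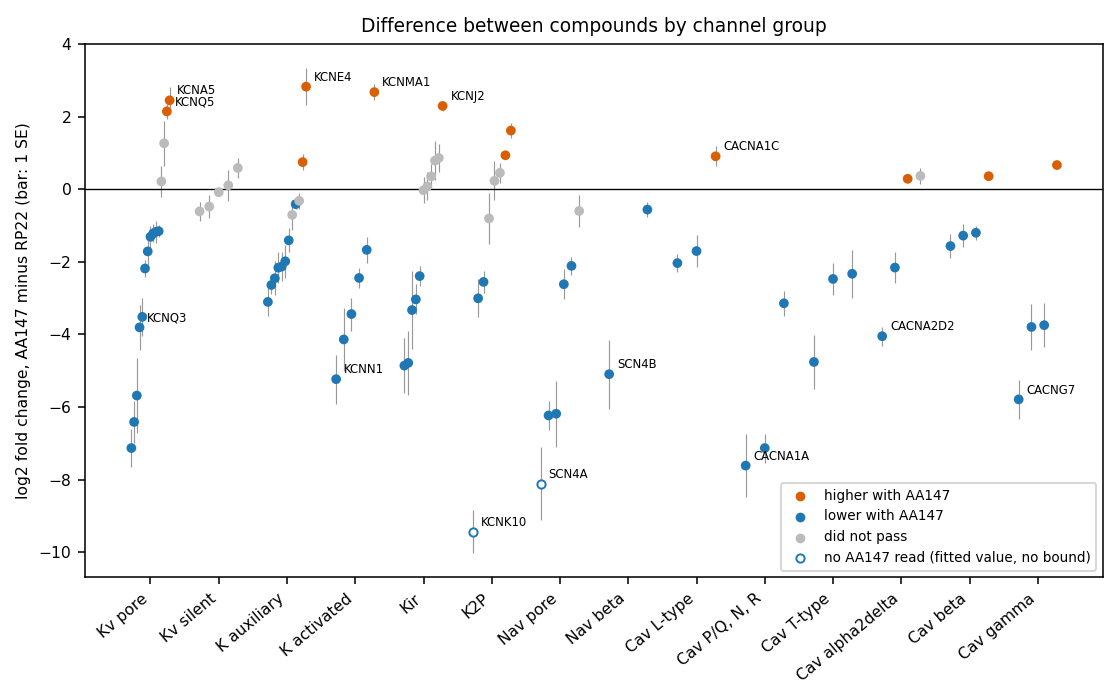
Log2 fold changes of AA147 over RP22 for channel genes tested, by kind of subunit, with bars of 1 standard error. Orange points rose and blue points fell past the test, and grey points did not pass. Open circles mark KCNK10 and SCN4A, which fell past the test and had no read with AA147. Most points lie below 0, and those farthest above 0 are KCNE4, KCNMA1, KCNA5, KCNJ2 and KCNQ5; CACNA2D1 and CACNB3, just above 0 here, are below 0 when scaled by library totals.

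Among the calcium- and sodium-activated potassium channels, 1 of 6 rose and 5 fell. KCNMA1 had 501, 369 and 426 reads in the RP22 libraries and 1473, 1906 and 2629 in the AA147 libraries. Every AA147 library was thus far above every RP22 library, and the log2 fold change was 2.68 ± 0.23 (SE, adjusted p = 0.00013). The small-conductance channels, which open when calcium rises and follow bursts of firing, went the other way. KCNN2 had 138, 64 and 87 reads with RP22 and 9, 3 and 7 with AA147, with no overlap and a log2 fold change of -3.44 ± 0.45 (adjusted p = 0.0004). KCNN1 had 22, 42 and 58 reads against 1, 0 and 1, a 41.4-fold difference with a 95% counting interval of 11.2 to 345. KCNN3 fell by 4.14 ± 0.87 on the log2 scale. The intermediate-conductance channel KCNN4, which sustains calcium entry in lymphocytes and epithelia, had 228, 198 and 195 reads with RP22 and 78, 30 and 32 with AA147. Its groups did not overlap either, and it fell by 1.67 ± 0.36 (adjusted p = 0.006), or by 2.26 without AA147 replicate 1. KCNT2, a sodium-activated channel, fell by 2.44 ± 0.28.

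The KCNMA1 rise was accompanied by unequal changes of its beta subunits, which tune calcium sensitivity and inactivation. KCNMB4 had 265, 263 and 293 reads with RP22 and 166, 146 and 130 with AA147, and fell by 0.41 ± 0.12 on the log2 scale (adjusted p = 0.022). KCNMB2 fell by 2.45 from 32, 22 and 16 reads to 3 in each AA147 library. KCNMB1, the smooth muscle subunit, had 2, 7 and 5 reads with RP22 and 10, 6 and 7 with AA147, too few to be tested. KCNMB3 rose by 0.75 ± 0.22 (adjusted p = 0.018) but did not pass with library totals (0.30, adjusted p = 0.266) or without RP22 replicate 3 (0.70, adjusted p = 0.063), within a range of adjusted p over its alternatives of 0.0054 to 0.27. Its exons overlap those of PIK3CA on the other strand by 3403 bases, and whether reads were counted by strand is not given in the sources used here.

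Voltage-gated potassium channel (Kv) pores of the KCNA, KCNB, KCNC, KCND, KCNQ and KCNH families mostly fell, in 14 of 19 cases. KCNQ3, a subunit of the M-current channel that restrains repetitive firing, had 21, 59 and 84 reads with RP22 and 4, 2 and 2 with AA147. No libraries overlapped, and it fell by 3.81 ± 0.63 (adjusted p = 0.0012). KCNQ1, the channel of the slow cardiac repolarizing current, had 7, 10 and 12 reads against 0, 1 and 1 and was not tested; the ratio of 9.83 has a counting interval of 2.49 to 85.

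The Shaker-type and Shaw-type channels of axons and fast-spiking neurons were nearly without reads in the AA147 libraries. KCNA1 had 90, 83 and 83 reads with RP22 and 0, 1 and 0 with AA147, a ratio of 174 with a counting interval of 30.9 to 6883. For KCNA2 the reads were 115, 58 and 101 against 1, 0 and 1, a ratio of 92.9 (25.5 to 771). KCNC1 had 16, 73 and 78 against 0, 0 and 2, a ratio of 56.6 (15.4 to 471), with RP22 replicate 1 the lowest of its group and all AA147 reads in replicate 3. Each of these 3 passed the test, and none had an AA147 library within the range of RP22. With so few AA147 reads, a fitted SE can lie below the counting error alone, so ratios are given in its place. KCNH2, which carries the rapid delayed rectifier current of the heart, had 97, 128 and 111 reads with RP22 and 14, 17 and 22 with AA147. It kept a measurable level and fell by 2.18 ± 0.23 (adjusted p = 0.00014).

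A smaller set of Kv pores went up. KCNQ5, the KCNQ member found in smooth muscle as well as brain, had 96, 104 and 105 reads with RP22 and 218, 351 and 405 with AA147. Its log2 fold change was 2.15 ± 0.22 (adjusted p = 0.00014), so that KCNQ5 rose while KCNQ3 of the same family fell. KCNA5, the ultrarapid delayed rectifier of atrial and vascular muscle, had 10, 6 and 11 reads against 26, 31 and 51. It rose by 2.45 ± 0.37 (adjusted p = 0.00075). KCNH1, with 82, 20 and 21 reads against 66, 98 and 51, did not pass (1.27 ± 0.63, adjusted p = 0.12). Its RP22 replicate 1 lay inside the AA147 range.

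Electrically silent Kv subunits, which form channels only together with other Kv pores, did not pass the test in any of 5 cases. KCNG1 had 214, 227 and 282 reads with RP22 and 175, 159 and 155 with AA147, with a log2 fold change of -0.08 ± 0.12 (adjusted p = 0.59) and a 95% interval of the difference from -0.40 to 0.25. KCNS3 had 38, 47 and 34 reads against 17, 21 and 18, and its log2 fold change of -0.61 had an adjusted p of 0.083. Of the other Kv auxiliary subunits, KCNE4 rose most. It had 86, 32 and 20 reads with RP22 and 262, 218 and 235 with AA147, and the widely spread RP22 libraries all lay below those of AA147. The log2 fold change of KCNE4, an inhibitory partner of several Kv pores, was 2.83 ± 0.51 (adjusted p = 0.004), or 3.72 without RP22 replicate 1. KCNAB3 fell by 3.10 ± 0.39 and KCNAB2 by 2.64 ± 0.26; both are cytoplasmic beta subunits. The potassium channel-interacting proteins KCNIP1, KCNIP2 and KCNIP4, which bind KCND pores, fell as well, KCNIP1 by 2.16 ± 0.42. KCND2, the pore of the transient A-type current, had 40, 39 and 57 reads against 17, 10 and 12 and fell by 1.31 ± 0.30.

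Inward rectifiers (KCNJ genes), which hold cells near the potassium equilibrium potential, went both ways. KCNJ2, the main channel of the cardiac and vascular inward rectifier current, had 197, 196 and 252 reads with RP22 and 615, 762 and 900 with AA147. Its log2 fold change of 2.30 ± 0.14 (adjusted p = 1.1e-05) came with the smallest adjusted p of the 14 rises. Of 11 KCNJ genes tested 5 fell, namely KCNJ3, KCNJ4, KCNJ11, KCNJ12 and KCNJ13. KCNJ12 had 124, 207 and 177 reads against 30, 19 and 20 and fell by 2.39 ± 0.27; the nearly identical KCNJ18 is not listed in the table, so its reads may be counted here. KCNJ11, the pore of the channel closed by ATP, had 14, 36 and 44 reads against 1, 0 and 1, a ratio of 31.9 (8.58 to 267). Its sulfonylurea receptor partner ABCC8 had 17, 27 and 44 reads with RP22 and none with AA147, at least 19.9-fold fewer. KCNJ15 had 56, 34 and 61 reads against 65, 38 and 35 and did not pass, with a log2 fold change of 0.36 and a 95% interval from -0.56 to 1.27.

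The K2P channels, which carry background potassium current, also split. KCNK10, a channel opened by stretch and lipids, had 82, 95 and 127 reads with RP22 and none in any AA147 library, at least 68.7-fold fewer when 3 reads are set for the AA147 group as a floor. KCNK5, an acid-sensitive background channel, had 166, 211 and 228 reads against 17, 17 and 40 and fell by 2.55 ± 0.30 (adjusted p = 0.00023). KCNK6 had 125, 86 and 78 reads with RP22 and 196, 215 and 231 with AA147, a rise of 1.62 ± 0.20 (adjusted p = 0.00031). KCNK1, whose channels are often silent at the surface, had 214, 184 and 247 against 287, 284 and 315, and rose by 0.94 ± 0.10 (adjusted p = 0.00017). KCNK3, an acid-sensitive channel of heart and pulmonary artery, had 57, 45 and 44 reads against 63, 40 and 41. These groups overlapped and the log2 fold change was 0.46 (adjusted p = 0.18, 95% interval -0.29 to 1.21). KCNK2 had 6, 29 and 29 reads with RP22 and 3, 2 and 0 with AA147 and was not tested.

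**Figure D3:**
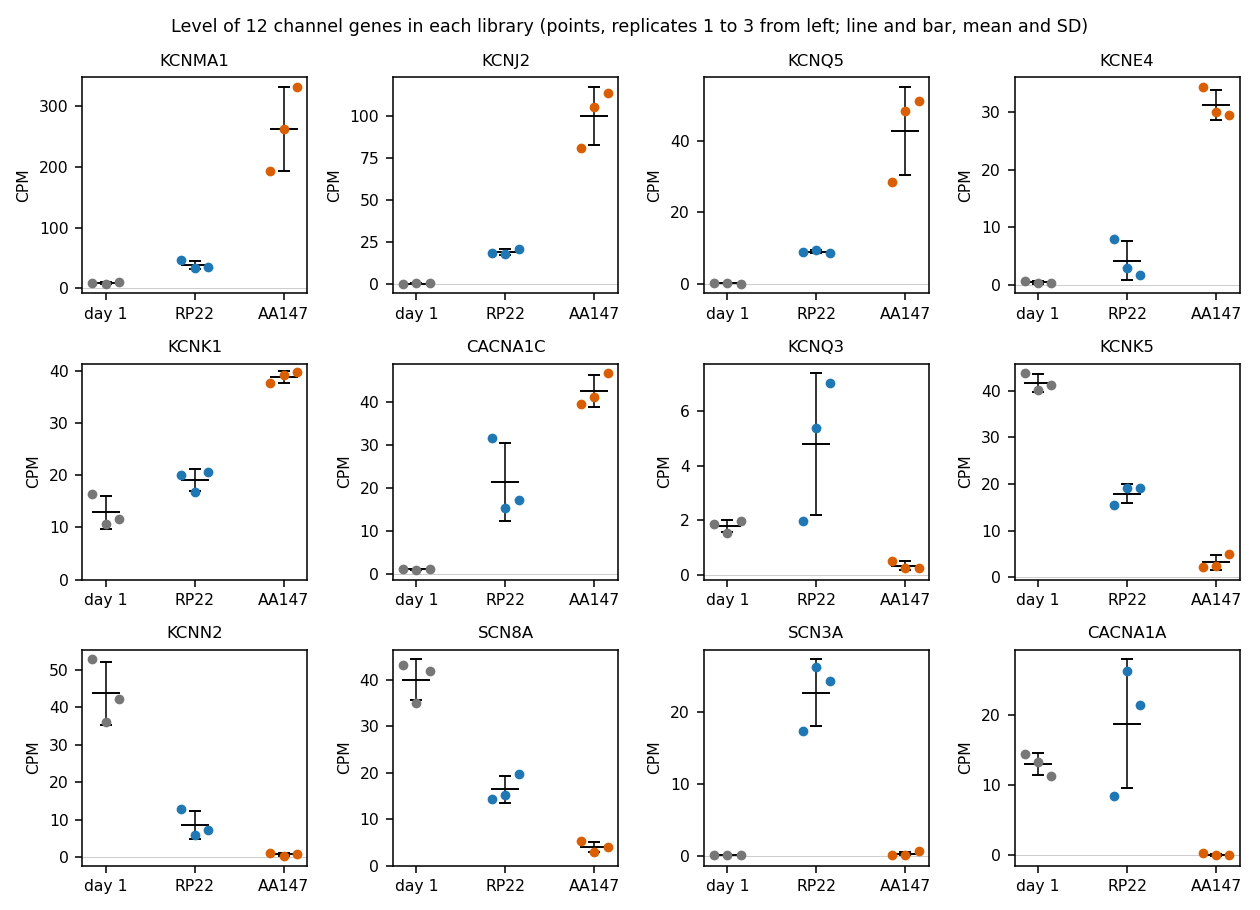
Levels in CPM of 12 channel genes in the 9 libraries, with points for libraries and the mean and SD of each group. KCNMA1, KCNJ2, KCNQ5, KCNE4 and KCNK1 are highest with AA147; KCNQ3, KCNK5, KCNN2, SCN8A and CACNA1A are lowest there; SCN3A is high with RP22 alone, and CACNA1C is lowest at day 1.

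Promoter sequence is shown for 4 genes that rose with AA147 under both scalings and, for contrast, for CACNA1A, a calcium channel gene that was almost lost. Each is the 250 bases before the RefSeq transcript start in GRCh38.p14, written 5′ to 3′ on the strand of the gene. Capitals mark matches on either strand to TGACGTGG, a site bound by ATF6 and XBP1, or to GGAATG, a site of TEAD factors. The windows are KCNMA1 at chr10:77637809-77638058 (minus strand), KCNK1 at chr1:233613856-233614105 (plus), KCNQ5 at chr6:72621814-72622063 (plus), KCNK6 at chr19:38319595-38319844 (plus) and CACNA1A at chr19:13506480-13506729 (minus).
KCNMA1: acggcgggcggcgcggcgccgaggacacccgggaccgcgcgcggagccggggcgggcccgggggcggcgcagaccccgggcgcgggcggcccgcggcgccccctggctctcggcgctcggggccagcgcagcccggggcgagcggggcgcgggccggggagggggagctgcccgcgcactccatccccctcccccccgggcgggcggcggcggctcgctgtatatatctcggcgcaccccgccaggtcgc
KCNK1: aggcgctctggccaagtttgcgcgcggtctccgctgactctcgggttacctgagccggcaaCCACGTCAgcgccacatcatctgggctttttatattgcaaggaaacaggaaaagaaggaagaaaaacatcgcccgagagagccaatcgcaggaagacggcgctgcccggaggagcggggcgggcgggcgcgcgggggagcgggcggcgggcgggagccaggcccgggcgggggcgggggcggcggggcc
KCNQ5: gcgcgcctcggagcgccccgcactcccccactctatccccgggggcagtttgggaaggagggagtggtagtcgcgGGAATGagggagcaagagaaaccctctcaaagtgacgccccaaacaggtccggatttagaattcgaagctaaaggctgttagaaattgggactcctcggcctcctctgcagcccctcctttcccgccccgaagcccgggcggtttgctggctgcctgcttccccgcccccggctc
KCNK6: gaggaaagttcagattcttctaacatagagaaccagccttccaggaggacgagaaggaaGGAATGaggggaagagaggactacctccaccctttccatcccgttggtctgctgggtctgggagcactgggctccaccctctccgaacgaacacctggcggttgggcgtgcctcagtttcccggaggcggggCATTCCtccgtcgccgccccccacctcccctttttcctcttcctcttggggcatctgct
CACNA1A: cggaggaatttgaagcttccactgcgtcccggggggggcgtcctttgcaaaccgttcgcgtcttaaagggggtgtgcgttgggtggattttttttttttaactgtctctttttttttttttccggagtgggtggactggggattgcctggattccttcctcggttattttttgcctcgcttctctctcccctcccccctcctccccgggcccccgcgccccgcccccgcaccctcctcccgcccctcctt

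KCNK1 held TGACGTGG once, on the opposite strand, starting 189 bases before the transcript start. That motif is in 0.612% of 35116 windows of all genes and in 2 of the 147 windows (1.36%) of the 95 channel genes matched. KCNQ5 held GGAATG once, 175 bases before the start, and KCNK6 held it on each strand; 11.9% of all windows and 10.2% of channel windows hold it. The KCNMA1 and CACNA1A windows held neither. KCNMA1 had 46 CG pairs in its window, the other 4 had 11 to 30, and the median of all windows was 11. Of 10 matched genes that rose, 1 held the first motif and 2 the second. The windows shown include every riser with either motif, namely KCNK1, KCNQ5 and KCNK6. Of 39 matched genes that fell, 1 held the first motif and 6 the second. The palindromic site TGACGTCA, in 1.65% of all windows, was in none of the genes that rose or fell. A match shows only that the letters are there; binding was not measured.

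Among sodium channels, the pore genes fell in 6 of 7 cases. SCN3A, a pore of the embryonic brain, had 187, 289 and 292 reads with RP22 and 1, 1 and 5 with AA147. No libraries overlapped and the log2 fold change was -6.23 ± 0.41 (adjusted p = 1.6e-05), or -7.33 without AA147 replicate 3. SCN8A, the pore at the initial segment of mature axons, had 153, 168 and 237 reads against 40, 21 and 31 and fell by 2.11 ± 0.25 (adjusted p = 0.00024). SCN4A, the skeletal muscle pore, had 22, 40 and 60 reads with RP22 and none with AA147, at least 27.6-fold fewer. The AA147 libraries of SCN8A kept some reads, unlike those of SCN4A. SCN7A, a sodium-sensing channel of glia, had 71, 23 and 38 reads against 0, 1 and 0, a ratio of 89.5 (15.8 to 3562). SCN11A, a pore of sensory neurons, fell by 2.61 ± 0.41. SCN9A, also of sensory neurons, was the exception. Its 227, 89 and 131 reads with RP22 and 57, 102 and 53 with AA147 overlapped, and the log2 fold change was -0.60 ± 0.43 (adjusted p = 0.27, 95% interval -1.80 to 0.61). SCN1A and SCN2A, pores of central neurons, had 11, 14 and 10 reads against 0, 0 and 1, and 15, 18 and 10 reads against 6, 4 and 2, and were not tested.

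The Nav beta subunits, which anchor the pores and act as adhesion proteins, fell in 2 of 3 cases. SCN4B had 290, 76 and 68 reads with RP22 and 1, 3 and 5 with AA147. RP22 replicate 1 was far above the other 2, yet all 3 were above AA147, and SCN4B fell by 5.10 ± 0.95 (adjusted p = 0.0041), or by 4.01 without that library. It did not pass by limma-voom (-4.71, adjusted p 0.087, the highest over its alternatives). SCN3B had 177, 113 and 167 reads against 70, 68 and 85. It fell by 0.56 ± 0.20 (adjusted p = 0.039) although the scaled groups overlapped, and the call was lost with most single libraries left out (adjusted p 0.0018 to 0.13 over the alternatives).

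The calcium channel pores of nerve terminals fell in 3 of 3 cases. CACNA1A, the P/Q-type pore that drives transmitter release, had 91, 289 and 257 reads with RP22 and 2, 0 and 0 with AA147. The ratio was 216 with a counting interval of 59.5 to 1787. CACNA1E, the R-type pore, had 127, 162 and 164 reads against 0, 1 and 1, a ratio of 154 (42.3 to 1272). CACNA1B, the N-type pore, had 170, 154 and 172 reads against 23, 8 and 9, and fell by 3.14 ± 0.35 (adjusted p = 0.00018), or by 3.79 without AA147 replicate 1. For all 3 genes the groups were far apart. Together these 3 pores summed to 36.2 to 55.1 CPM in the RP22 libraries and 1.24 to 3.28 CPM in the AA147 libraries.

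The low-voltage T-type pores, which support pacemaking, also fell in 3 of 3 cases. CACNA1H had 490, 751 and 803 reads with RP22 and 149, 42 and 72 with AA147 and fell by 2.47 ± 0.45 (adjusted p = 0.0046), or by 3.09 without AA147 replicate 1. CACNA1G had 27, 44 and 36 reads against 12, 1 and 2 and fell by 2.33 ± 0.66 (adjusted p = 0.016); AA147 replicate 1 was the highest of its group for both. The CACNA1G call was lost without AA147 replicate 2 (-1.86) or 3 (-1.92) or without RP22 replicate 2 (-2.12), and the fall was 4.0 without AA147 replicate 1 (adjusted p 1.1e-06 to 0.063 over the alternatives). CACNA1I had 17, 18 and 14 reads against 1, 0 and 0, a ratio of 33.2 (5.69 to 1339).

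L-type pores, the targets of dihydropyridines, did not move together. CACNA1C, the L-type pore of heart and smooth muscle, had 339, 168 and 206 reads with RP22 and 302, 298 and 370 with AA147. The scaled levels were 31.7, 15.3 and 17.2 CPM against 39.6, 41.1 and 46.6 CPM, which do not overlap, and it rose by 0.91 ± 0.27 (adjusted p = 0.025). It did not pass with library totals (0.47, adjusted p = 0.126) or without any 1 AA147 library or without RP22 replicate 2 or 3 (adjusted p 1.4e-09 to 0.13 over the alternatives). CACNA1D, the L-type pore of neurons, endocrine cells and the sinus node, had 78, 64 and 64 reads against 10, 13 and 13 and fell by 2.03 ± 0.26 (adjusted p = 0.00032). CACNA1S, the skeletal muscle pore, fell by 1.70 ± 0.45 (adjusted p = 0.012). The summed level of the L-type pores was 24.9 to 40.6 CPM with RP22 and 41.6 to 48.9 CPM with AA147, with CACNA1C holding most of the AA147 reads. The RPKM scale removes the effect of gene length but carries no TMM factor. On it the sums were 2.87 to 3.85 and 2.58 to 2.96 and overlapped. With 0.1 added, the median log2 RPKM difference of all genes was -0.48 for AA147 against RP22, so length and scaling both differ between the 2 sums.

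Auxiliary calcium channel subunits split within each family. CACNA2D2, the alpha2delta subunit common in cerebellar Purkinje cells, had 192, 251 and 307 reads with RP22 and 7, 14 and 11 with AA147 and fell by 4.05 ± 0.27 (adjusted p = 1.7e-05). CACNA2D1, the widely expressed gabapentin-binding subunit, had 590, 489 and 582 reads against 512, 494 and 449. Its call of 0.29 ± 0.11 (adjusted p = 0.046) turned to -0.16 with library totals and to -0.11 and -0.10 on the 2 log2 RPKM scales. CACNB3 had 451, 489 and 501 reads against 451, 397 and 482, and its call of 0.36 ± 0.077 (adjusted p = 0.0041) likewise turned to -0.09 with library totals and to -0.04 on both log2 RPKM scales. CACNB1, the skeletal muscle beta subunit, had 74, 83 and 97 reads against 29, 24 and 26 and fell by 1.20 ± 0.20 (adjusted p = 0.0012). CACNB2 and CACNB4 fell by 1.28 ± 0.33 and 1.56 ± 0.34. Among the gamma family, CACNG4 rose by 0.67 ± 0.07 (adjusted p = 0.00013) from 704, 810 and 836 reads to 867, 863 and 951. CACNG7 had 60, 94 and 103 reads against 1, 2 and 0, a ratio of 58.1 (19.7 to 284), and CACNG8 a ratio of 14.5 (4.73 to 72.0).

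In all, 19 of the 92 genes did not pass, which does not show that the compounds act alike on them. Their log2 fold changes ran from -0.80 (KCNK12) to 1.27 (KCNH1). Intervals of 95%, with 4 residual degrees of freedom, stayed within 2-fold in either direction for 3 genes (KCNG1, KCNAB1 and CACNA2D3) and reached as far as -2.76 and 3.01 for the others.

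The second comparison set RP22 at day 13 against untreated cells at day 1, groups that differ in both time and compound. Of 95 genes tested, 50 rose and 22 fell, where 71.9% of all 14558 genes tested passed, 36.6% rising and 35.2% falling. The median log2 fold change was 0.91, against 0.02 for all genes, and 30 genes (31.6%) rose at least 4-fold, as 13.0% of all genes did. A single gene, KCNG3, fell at least 8-fold, where 1.03% of all genes did. Groups did not overlap for 73.7% of the 95 genes and 76.9% of all genes. Potassium channel genes rose in 37 of 61 cases and fell in 11, with a median of 1.23. Calcium channel genes rose and fell in 8 cases each of 22, and sodium channel genes rose in 5 and fell in 3 of 12.

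Inward rectifiers rose in 7 of 9 cases and fell in none. KCNJ2 went from 4, 5 and 5 reads at day 1 to 197, 196 and 252, a log2 fold change of 5.37 ± 0.22 (adjusted p = 8.3e-07). KCNJ3, the cardiac and neuronal channel opened by G proteins, went from 1, 0 and 0 reads to 54, 15 and 18, a ratio of 80.4 (14.1 to 3211). All RP22 libraries were above those of day 1 for both. KCNJ15 rose by 4.70 ± 0.57 (5.39 without day 1 replicate 3), and KCNJ13 had 0, 2 and 1 reads at day 1 against 18, 24 and 30. The Kv auxiliary subunits rose in 9 of 12 cases, among them KCNIP1 (ratio 31.1, 10.3 to 153) and KCNMB2 (ratio 21.6, 7.08 to 107), each from 3 reads at day 1.

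Among the pores, SCN3A had 1 read in each day 1 library and 187, 289 and 292 reads with RP22, a ratio of 237 (80.6 to 1150). KCNQ5 had 3, 3 and 1 reads at day 1 and rose by 5.26 ± 0.33 (adjusted p = 5.2e-06). KCNN4 went from 2, 8 and 6 reads to 228, 198 and 195, a rise of 5.13 ± 0.35 (adjusted p = 7e-06). SCN3A and KCNN4, which rose here, were among the genes lower with AA147 than with RP22. CACNA1C went from 12, 11 and 12 reads to 339, 168 and 206, a rise of 4.23 ± 0.35 (adjusted p = 2e-05). KCNK10 went from 4, 5 and 3 reads to 82, 95 and 127 and rose by 4.50 ± 0.30. SCN7A rose by 4.28 ± 0.75 (5.17 without day 1 replicate 1), and CACNA1S had a ratio of 22.8 (7.50 to 113). CACNA1E rose by 2.39 ± 0.46, while CACNA1B (-0.02, adjusted p = 0.93) and CACNA1A (0.53 ± 0.39, adjusted p = 0.26) did not pass. CACNA1A passed without RP22 replicate 1, with a log2 fold change of 0.87. Of the other sodium channel genes, SCN3B rose by 1.67 ± 0.31 and SCN11A by 1.30 ± 0.38 (adjusted p = 0.014), the latter not passing without day 1 replicate 3 (1.25, adjusted p = 0.052, the highest over its alternatives). SCN9A rose by 1.15 ± 0.35 (adjusted p = 0.018), or by 0.66 without RP22 replicate 1, and did not pass without day 1 replicate 2 or 3.

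Transcripts that went down included several of the most abundant at day 1. KCNG3, a silent Kv subunit, had 256, 216 and 205 reads at day 1 and 1, 8 and 15 with RP22, a fall of 4.92 ± 0.46 on the log2 scale (-5.67 without RP22 replicate 3). KCNN2 went from 568, 371 and 425 reads to 138, 64 and 87 and fell by 2.34 ± 0.30. KCNS3 fell by 2.19 ± 0.22, and KCNK12, a K2P subunit, by 2.79 ± 0.39. In each case the lowest day 1 library was above the highest RP22 library. KCNK5 fell by 1.22 ± 0.11 and SCN8A by 1.28 ± 0.15 (adjusted p = 0.00011) from 466, 361 and 421 reads at day 1. CACNA2D1, with 1283, 888 and 849 reads, fell by 0.97 ± 0.15 (adjusted p = 0.00063), and CACNA2D2, with 651, 467 and 498, by 1.23 ± 0.16. KCND2, KCNK15, KCNN1, KCNQ1, CACNA1F, CACNG7 and CACNG8 were the other falls with means of at least 2 CPM at day 1 named by the same rule, such as KCNQ1 by 1.40 ± 0.31 and CACNG7 by 1.37 ± 0.20.

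The third comparison, AA147 at day 13 against day 1, uses the same 3 day 1 libraries as the second, so the 2 are not independent. Of 73 genes tested, 37 fell and 25 rose, where 79.1% of all 13761 genes tested passed, 40.4% falling and 38.7% rising. The median log2 fold change was -0.81, against -0.04 for all genes. Falls of at least 8-fold were found for 24 of the 73 (32.9%), where 5.56% of all genes fell that far, and rises of at least 4-fold for 16, where 12.4% of all genes rose that far. The groups did not overlap for 86.3% of the 73 genes and for 82.3% of all genes. Potassium channel genes were balanced, with 21 rises and 20 falls among 47. Sodium channel genes fell in 5 of 8 cases and rose in 1, and calcium channel genes fell in 12 of 18 and rose in 3.

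KCNJ2 had the largest rise, 7.75 ± 0.22 (adjusted p = 3e-09), from 4, 5 and 5 reads at day 1 to 615, 762 and 900. Side by side, the RP22 cells stood at 5.37 above the same day 1 libraries. KCNQ5 rose by 7.48 ± 0.38, KCNE4 by 5.98 ± 0.25, KCNH1 by 5.52 ± 0.47, CACNA1C by 5.22 ± 0.16 (adjusted p = 5.1e-09) and KCNMA1 by 4.81 ± 0.23 (adjusted p = 5.6e-07). The corresponding values with RP22 were 5.26 for KCNQ5, 3.09 for KCNE4, 4.19 for KCNH1, 4.23 for CACNA1C and 2.05 for KCNMA1. KCNJ16 had no read at day 1 and 20, 17 and 12 with AA147, at least 22.3-fold more. KCNJ5, a partner of KCNJ3 in the atrial G protein-gated channel, had 0, 1 and 0 reads at day 1 and 17, 20 and 15 with AA147, a ratio of 70.9 (12.2 to 2852). Both were also above day 1 with RP22. There KCNJ16 had 40 reads in all, at least 12.3-fold more, and KCNJ5 had 40, a ratio of 37.0 (6.26 to 1496). Neither passed the edgeR test between the compounds (adjusted p = 0.23 for KCNJ16 and 0.084 for KCNJ5). Inward rectifiers rose in 6 of 8 cases with AA147 against day 1.

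Several transcripts with clear read counts at day 1 were nearly or wholly without reads with AA147. Reads are not corrected for gene length. At day 1 all Nav pores together summed to 7.10 to 8.92 RPKM, and the P/Q, N and R calcium pores to 3.12 to 4.19 RPKM. KCNG3 had no read with AA147, at least 166-fold fewer than at day 1, and SCN4A went from 89, 88 and 78 reads to none, at least 62.4-fold fewer. KCNN1 had 153, 104 and 165 reads at day 1 and 1, 0 and 1 with AA147, a ratio of 155 (42.6 to 1283). CACNA1A had 155, 137 and 114 reads at day 1 and CACNG7 212, 174 and 223, with ratios of 149 for each (41.0 to 1234 and 50.7 to 724). KCNN2 fell by 5.69 ± 0.28 and CACNA2D2 by 5.19 ± 0.22. In these 7 genes no AA147 library had more than 14 reads. SCN8A fell by 3.31 ± 0.20, KCNK5 by 3.68 ± 0.24 and CACNA1B by 3.08 (-3.71 without AA147 replicate 1). KCNH2 fell by 2.36 from 112, 119 and 139 reads, whereas with RP22 it had not passed (-0.26, adjusted p = 0.23); the difference is the AA147 against RP22 result given above.

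These changes left a different mix of pores within each class. KCNMA1 made up 2.80 ± 0.28% of the summed RPKM of potassium channel pores at day 1, 7.48 ± 1.4% with RP22 and 42.6 ± 5.1% with AA147. The length behind its RPKM was 2855 to 3357 bases at day 1, 3849 to 5475 with RP22 and 3772 to 3894 with AA147. These differences in length bear on its shares. KCNN2 made up 16 ± 0.98% at day 1 and 0.281% with AA147. KCNJ2 reached 11.5 ± 0.69% and KCNK1 11.4% with AA147. The sodium channel pool was led by SCN8A at day 1 (53.7 ± 0.88%), by SCN3A with RP22 (33.2 ± 8.5%) and by SCN9A with AA147 (55.7 ± 14%). SCN9A had itself not changed past the test between the compounds; its share stood out because the summed Nav pores were at 64.4 to 72.0 CPM with RP22 and 13.7 to 19.2 CPM with AA147. CACNA1H led the calcium pores at day 1 (49.4%) and with RP22 (50.2%), and CACNA1C led with AA147 (60.2 ± 13%, from 45.5 to 68.4%), up from 0.859% at day 1. Shares within a class sum to a fixed total, so a rise of 1 gene lowers the others.

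**Figure D4:**
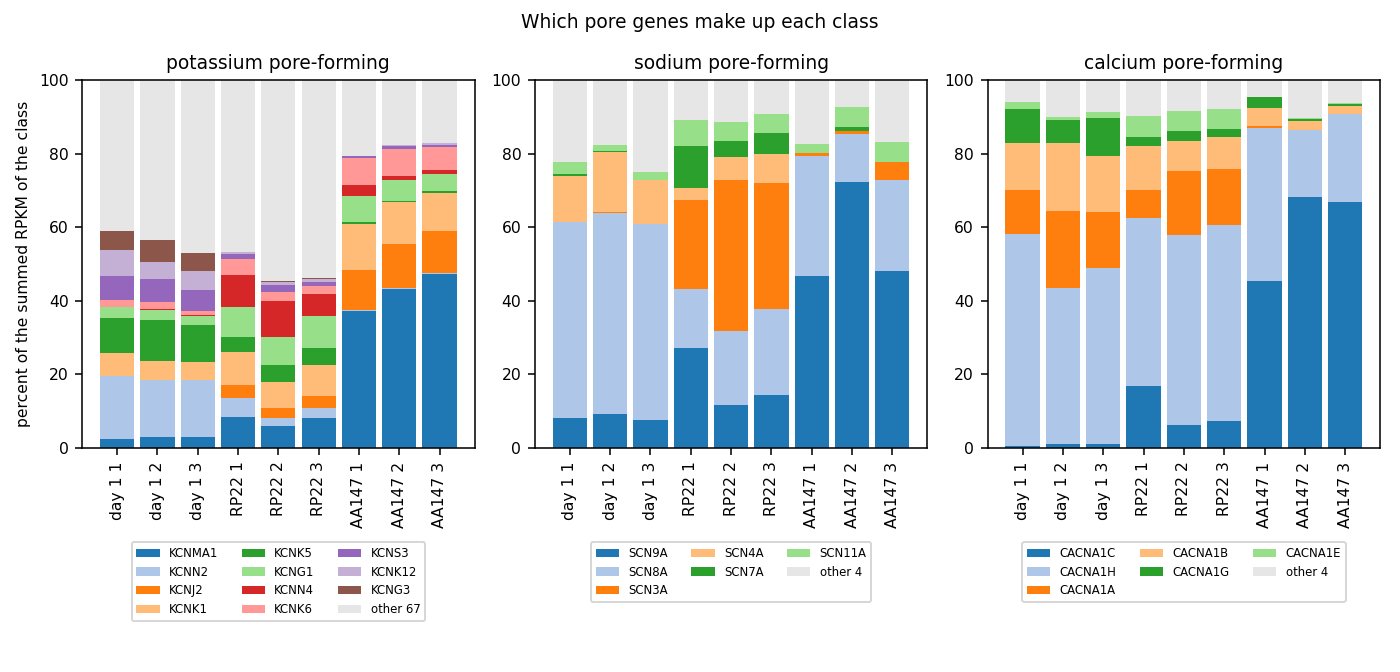
Share of the summed RPKM of pore-forming genes held by the leading genes of the potassium, sodium and calcium channel classes, in percent, as 1 stacked bar for each of the 9 libraries, with the remaining genes in grey. With AA147 the largest shares are those of KCNMA1 (mean 42.6%), SCN9A (55.7%) and CACNA1C (60.2%).

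Summed transcript levels did not follow the counts of genes. All potassium channel genes summed to 320 to 405 CPM at day 1, 459 to 478 CPM with RP22 and 582 to 751 CPM with AA147. On the RPKM scale the same sums were 115 to 150, 143 to 164 and 134 to 160, and the 2 day 13 groups overlapped. Without KCNMA1 the potassium channel pores summed to 278 to 348, 331 to 369 and 308 to 352 CPM in the same order, groups that overlap. On the RPKM scale the sums without KCNMA1 were 99.9 to 129, 104 to 124 and 71.0 to 74.9, with AA147 below both other groups. RPKM carries no TMM factor, however. On log2(RPKM + 0.1) the median of all genes with AA147 was -0.48 against RP22 and -0.47 against day 1. How much of the AA147 gap is that shift of all genes was not tested. Calcium channel genes summed to 256 to 381, 336 to 377 and 309 to 321 CPM, with the day 1 range spanning both others and AA147 below RP22. The largest single contributor was CACNA2D1 at day 1 (mean 96.7 CPM) and CACNG4 with RP22 (69.8 CPM) and with AA147 (117.5 CPM). Sodium channel genes summed to 74.1 to 95.7, 84.1 to 120 and 28.9 to 32.5 CPM, lowest in every AA147 library.

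Markers of cell types that use these channels moved too. Counts are of the markers tested, and sums cover every marker listed. Over all genes tested between the compounds, 32.2% fell and 29.8% rose. Of 10 neuron markers, 8 fell and 1 rose with AA147 against RP22, and their summed level was 346 to 427 CPM at day 1, 1512 to 1620 CPM with RP22 and 489 to 507 CPM with AA147. ELAVL4, a neuronal RNA-binding protein, had 1, 0 and 0 reads with AA147. Neural progenitor markers fell in 7 of 7 cases. They summed to 933 to 1003 CPM at day 1, 176 to 510 CPM with RP22 and 2.27 to 4.85 CPM with AA147, where FABP7 and HES5 were at 0. Their sum was thus highest at day 1, and with RP22 against day 1, 4 of 8 rose and 2 fell. Neural crest markers fell in 6 of 6 cases (432 to 881 against 89.6 to 130 CPM), with FOXD3 at 0. Smooth muscle markers rose in 4 of 6 cases and fell in none, at 109 to 145 CPM at day 1, 377 to 486 CPM with RP22 and 3117 to 3534 CPM with AA147. Cardiomyocyte markers rose in 1 of 7 cases and fell in 2, with 71.5 to 136 CPM against 211 to 262 CPM; their defining MYH7 was at 0 and MYH6 at 1, 0 and 0 reads with AA147, and MYL7 rose by 2.42. Endothelial markers fell in 4 of 4 cases (85.9 to 180 against 5.52 to 22.3 CPM) with PECAM1 at 0, and hepatic markers in 5 of 5 (110 to 180 against 0.965 to 6.16 CPM) with TTR at 0. The part of these shifts in the channel results was not tested.

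**Figure D5:**
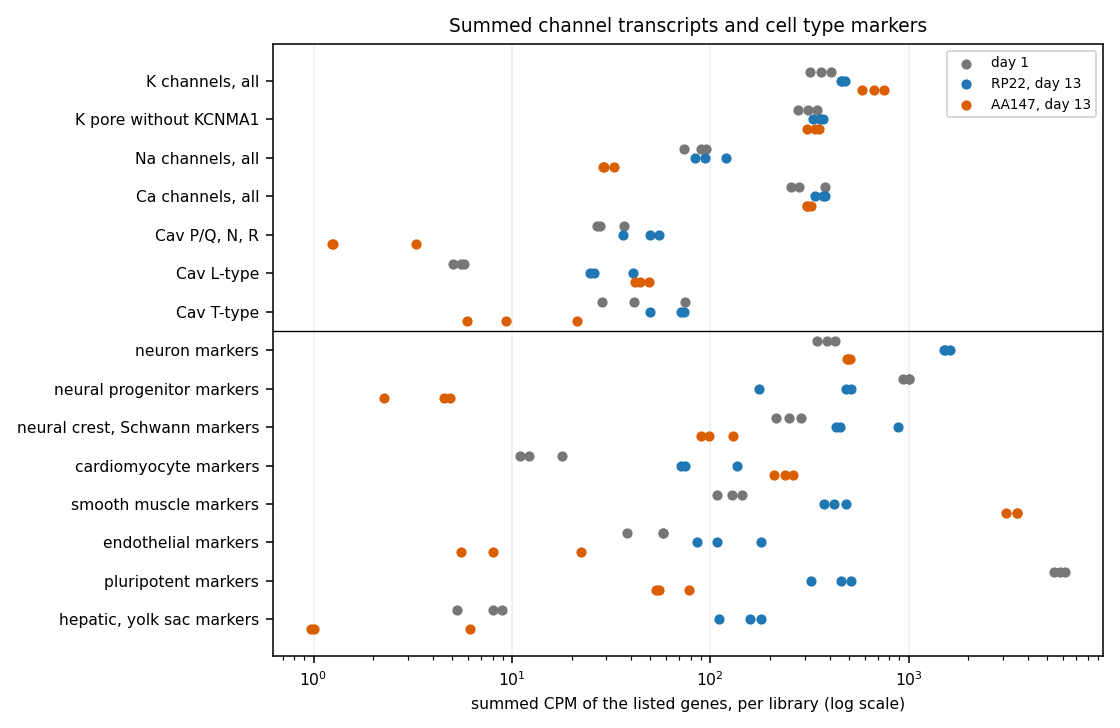
Summed level in CPM, on a log axis, of channel classes and of 8 cell type marker lists in the 9 libraries. The Cav P/Q, N and R pores and the sodium channels are lowest in the 3 AA147 libraries, neuron markers are highest with RP22, and smooth muscle markers are highest with AA147.

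Partners of the channels and other ion transport genes give the wider setting. Of 18 partner genes tested between the compounds, 10 fell (55.6%) and 3 rose (16.7%), where 32.2% of all genes fell and 29.8% rose. LRRC55, a gamma subunit of the KCNMA1 channel, had 179, 133 and 178 reads with RP22 and 1, 0 and 0 with AA147, opposite to its pore. FGF13, a cytoplasmic regulator of Nav channels, had 558, 550 and 548 reads against 12, 8 and 8 and fell by 5.39 ± 0.16. The ankyrin ANK2, which anchors channels at the membrane, fell by 3.54 ± 0.093, while NEDD4L, a ubiquitin ligase for Nav and KCNQ channels, rose by 1.38 ± 0.10. Of 35 other ion channels, 14 rose and 13 fell. The mechanosensitive channels parted, with PIEZO2 down by 3.93 ± 0.60 on the log2 scale (-5.22 without AA147 replicate 1) and PIEZO1 up from 1385, 1382 and 1525 reads to 4838, 4975 and 6046, a rise of 2.36 ± 0.083. Among 17 ion pumps and exchangers, 10 fell (58.8%) and 4 rose (23.5%).

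Some genes carry limits of the counting itself. Dividing reads by RPKM gives the length used, which varied between libraries for KCNMA1 (2855 to 5475 bases) and CACNB1 (2104 to 3662 bases), among others, so RPKM fold changes of these genes differ from those of reads. Exons of KCNA6 and GALNT8 share 4237 bases, those of CACNA1D and CHDH 1399 bases and those of KCNK15 and RIMS4 506 bases, and such reads could have been assigned to either gene. The 5 genes with the widest spread between RP22 libraries were KCNA7 (0, 9 and 7 reads), SCN4B, KCNG3, KCNC1 and SCN2B (41, 12 and 8 reads).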

How the data were processed

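RNA from 9 HUES9 libraries was sequenced, 3 per group. The authors deposited a table of estimated counts per gene and a table of RPKM per library. Per the submitters' processing notes the genome was GRCh37.p13. Which aligner and counter were used is not given in the sources used here. In the deposited counts 41.4% of values were at a floor of 0.05, read here as 0, and 0.914% were fractions, which were rounded. The 42 symbols on 2 rows were summed. Library totals of 9223027 to 10118258 reads set the precision, and intervals and floors cover counting error only.

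Each comparison was fitted on its own 6 libraries with edgeR 4.0.16 (R 4.3.3), with filterByExpr, TMM and the robust quasi-likelihood test with group as the only term. P-values were adjusted by Benjamini-Hochberg over all genes, with a threshold of 0.05. The SE is the absolute log2 fold change divided by the square root of F. Where a group had no read, folds were computed against 3 reads over its 3 libraries, and for 1 to 3 reads an exact 95% interval is given. RPKM was used only for levels, shares and 1 kind of alternative. Reads of mouse feeder cells could not be separated.

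The members, gene lists and markers were chosen with earlier results of these data known. Genes named are, in each comparison, the 12 strongest changes each way that passed the test, had no overlap of libraries and averaged 2 CPM or more in the higher group. Sodium channel genes past the filter, a fixed set of well-known pores and subunits, the 3 highest by RPKM in each group, the 5 with the widest RP22 spread and up to 4 members of each further list were also named. Other members were named to illustrate their subclass after their values were seen, and a few genes within the rule are not reported here.

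On data simulated at the observed levels, the AA147 against RP22 fit recovered 30.3% of the 1.5-fold changes. It recovered 68.7% of the 2-fold changes and 96.8% of the 4-fold changes, with 17 false calls among 13860 unchanged genes. Only 66, 67 and 63 of 14056 genes were changed at these folds, whereas 62.0% of genes passed in the real comparison. These rates hold for that setting alone and cannot be carried over to the real data. Alternatives were DESeq2 1.42.0, limma-voom (limma 3.58.1), DESeq2 size factors, library totals, no count filter, all 9 libraries in 1 fit, a replicate block, limma on log2 RPKM with a pseudocount of 0.1 or 1, and leaving out libraries. Promoters came from RefSeq (GRCh38.p14), and 95 of 133 genes matched; exon overlaps came from the GENCODE 29 annotation. No coordinates were converted between builds.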

Additional observations from a re-analysis of the deposited data

Results flagged for a closer look

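KCNQ3, a subunit of the M-current channel, moved in opposite directions from day 1 under the 2 compounds, and the test of the difference between the compounds passed. It was higher than at day 1 with RP22 by 1.41 on the log2 scale and lower with AA147 (-2.32), and the difference between the compounds was -3.81. Its RP22 libraries overlapped those of day 1, and the day 1 libraries are shared by both comparisons.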

How the results depend on the processing

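Under every alternative run, falls outnumbered rises for AA147 against RP22 and against day 1, and rises outnumbered falls for RP22 against day 1. The number of rises with AA147 against RP22 was 14 by edgeR and 8 with library totals, 8 with log2(RPKM + 0.1) and 8 with log2(RPKM + 1); over all genes, library totals moved the share rising from 29.8% to 13.3% and the share falling from 32.2% to 59.7%. Rises of calcium channel genes went from 4 to 1 and of sodium channel genes from 1 to 0 in those settings. CACNA2D1 turned to -0.16, -0.11 and -0.10 and CACNB3 to -0.093, -0.045 and -0.043. Without any 1 library, rises and falls were 10 to 14 and 58 to 67 for AA147 against RP22, 46 to 56 and 20 to 23 for RP22 against day 1, and 26 to 28 and 37 to 44 for AA147 against day 1. More genes passed the filter in those smaller fits. With no count filter, rises and falls were 13 and 78, 61 and 22, and 34 and 49 in the same order.

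With a replicate block, rises and falls were 13 and 59, 47 and 22, and 25 and 37, and among the genes named here the call of CACNA1G for RP22 against day 1 was lost (-1.12). The numbers were not taken to pair samples: deviations of same-numbered AA147 and RP22 libraries correlated at 0.21, 0.17 and 0.05 across genes, and AA147 replicate 3 correlated best with RP22 replicate 2 (0.16). At this depth, 41 of 133 genes could not be tested between the compounds, and 43 had 3 reads or fewer with AA147.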
